A study of Homo sapiens with 2 samples.

Results

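The 5'UTR peaks of NUDT21 were examined, that is, the peaks of a NUDT21 eCLIP-seq library whose midpoint lay in an annotated 5'UTR of a protein-coding gene and in no annotated 3'UTR. They were chosen by position alone, from GENCODE version 44 transcripts on hg38, and made up 606 of the 20499 peaks in the list (2.96%, exact Clopper-Pearson 95% interval 2.73 to 3.197). The library came from J-Gamma1 cells, a Jurkat derivative selected for loss of phospholipase C gamma 1 and used as a cell line of T-cell acute lymphoblastic leukemia (T-ALL). The series held 1 library made with a NUDT21 antibody and 1 input library of the same cells. Per the labels, both were kept on ice for crosslinking by UV-C (254 nm), in 2 exposures of 400 mJ, then lysed for 15 min and digested with 40 U of RNase I for 5 min. Values came from the antibody library's peak list only. With 1 library per group, no replicate and no read totals, depth was unknown, no difference was tested, and every interval given covers counting error only. The list carried no strand, so that a peak was given to a gene by its position.

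A 5'UTR is the leader of an mRNA, which lies between the cap and the start codon and is scanned by the small ribosomal subunit before translation begins. Leaders are often rich in G and C, can fold into stable structures, and may hold upstream open reading frames that lower translation of the main one. NUDT21 is the RNA-binding subunit of cleavage factor I, which recognises UGUA upstream of poly(A) sites and takes part in the choice among them. Its known place of action is thus the 3' end of a transcript. The study used eCLIP-seq to ask whether NUDT21 acts directly on 3' ends of genes whose poly(A) site use changed on its knockdown. It also reports NUDT21 at promoters, from a chromatin assay (Cut&Tag), and proposes a role in transcription.

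Sequences are shown first for the sites that carry the recognition motif. The following stretches of hg38, of 30 nt each, are written 5' to 3' as RNA on the strand of the gene, with UGUA in capitals, and come from 5'UTR peaks whose midpoint lay in no CDS of any transcript and which were among the 10 of highest fold enrichment with the motif. In each of those shown, the 4 bases of UGUA lay in a 5'UTR of the gene and in no CDS. They belong to DIDO1, a chromatin protein (chr20:62914243-62914272, minus strand), DCAF16, a substrate receptor of a ubiquitin ligase (chr4:17804330-17804359, minus), MKI67, the Ki-67 proliferation antigen (chr10:128126311-128126340, minus), NFE2L1, a transcription factor of proteasome genes (chr17:48050853-48050882, plus), and NUCB2, a calcium-binding protein (chr11:17282894-17282923, plus).
DIDO1: caggguuuuugguUGUAuuuaggauuucag
DCAF16: gagaugucuucuuUGUAagugaagaauaua
MKI67: cggggacguagccUGUAgggccaccggguc
NFE2L1: gguuaggaacaguUGUAcuuucagagguga
NUCB2: caguugucucaucUGUAaaaaggagauaaa

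Most 5'UTR peaks held no UGUA. The second set shows the central 30 nt of peaks of high fold enrichment, in the same layout, with capitals for the 5 tetramers that were most frequent in 5'UTR peaks relative to the rest of the same 5'UTRs. These were CCGC (1.54 times as dense in peaks), CGCC (1.47), GCCG (1.43), CCCC (1.43) and ACCG (1.40). They are from HMGB1 (chr13:30465818-30465847, minus strand), NAP1L1 (chr12:76084577-76084606, minus), TOP1 (chr20:41028980-41029009, plus), ANP32B (chr9:97983439-97983468, plus) and HDAC2 (chr6:113971027-113971056, minus), whose midpoints lay in the 5'UTR of the canonical transcript, and from HSP90B1 (chr12:103931584-103931613, plus), whose midpoint lay in CDS of the canonical transcript. The last sequence holds none of the 5 tetramers. The peaks of ARPP21 and AEBP1 ranked above those of ANP32B and HDAC2 by fold enrichment and are not shown. Of the 15 peaks of highest fold enrichment, the centres of ARPP21, RPL22, SRRM1 and KTN1 also held none of the tetramers. Those of AEBP1, MFSD11, NONO, LUC7L3 and G3BP2 held at least 1. The tetramers were taken from these same peaks, so that the capitals are a description.
HMGB1: cggggcaagugagaGCCGgacgggcacugg
NAP1L1: ugcgcagcuccgGCCGCCuggcuCCCCaua
TOP1: guCCCCguCCGCCCGCacagGCCGguucgc
ANP32B: ccggccuCCGCCGCuagcaaacccuuccga
HDAC2: ucuccucccACCGgccugcccuuCCCCGCg
HSP90B1: guagagaaggaucaaggacggaugaugaag

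The 5'UTR peaks as a group were intermediate in height. The deposited measures used were the fold enrichment, which sets the pileup against the local background, and the Score. The Score took whole multiples of 0.228, called steps here. Fold enrichment did not grow in proportion to the Score, with 1.17 at 1 step in STAT5B and at most 1.61 at 3 steps in HIVEP1. It is thus not read here as a plain multiple of the background. The median fold enrichment of 5'UTR peaks was 1.82, against 2.37 for CDS peaks, 2.12 for 3'UTR peaks, 1.39 for peaks in noncoding exons, 1.17 for intron peaks and 1.61 for the whole list. A fold enrichment of at least 2 was reached by 267 of the 606 (44.1%), beside 38.0% of all peaks, 74.1% of CDS peaks and 8.61% of intron peaks. At least 5 steps were reached by 298 (49.2%, interval 45.1 to 53.2), beside 42.3% of all peaks. That share was 81.5% in CDS, 66.2% in 3'UTRs and 9.37% in introns. An FDR under 0.05 was given to 4 of the 5'UTR peaks, beside 0.0927% of all peaks (19 peaks), and 599 of the 606 had an FDR of 1.

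The group was a mixture of low, long peaks and higher, short ones. A total of 170 (28.1%) stood at 1 step, with a median length of 194 nt, and 138 (22.8%) at 2 to 4 steps, with a median of 217.5 nt. At 5 to 8 steps there were 153 (25.2%), with a median of 62 nt, at 9 to 16 steps 125 (20.6%), with 78 nt, and at 17 or more steps 20 (3.30%), with 124.5 nt. The starts of neighbouring peaks in the list had a preferred distance of 476 nt. A neighbour at exactly this distance was found for 79 of the 308 5'UTR peaks of 4 steps or fewer (25.6%, 20.9 to 30.9) and for 4 of the 298 of 5 or more steps (1.34%, 0.367 to 3.40). The same shares over the whole list are not given here, so they are not read as a trait of 5'UTR peaks. The most common p-value in the list, 0.0469, was that of 306 5'UTR peaks (50.5%) and of 56.4% of all peaks.

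The annotation of a peak as 5'UTR often held for some transcripts of a gene and not for others. Each 5'UTR peak was therefore placed on the canonical transcript of its gene, the single one that the annotation marks as representative. On this transcript 309 (51.0%) lay in the 5'UTR, 116 (19.1%) in CDS, 118 (19.5%) in an intron and 62 (10.2%) upstream of its start, and 1 past its end. Their heights differed by place. Those in the canonical 5'UTR had a median fold enrichment of 2.02, and 56.6% of them (50.9 to 62.2) had 5 or more steps. Those in canonical CDS had a median of 2.37, with 74.1% (65.2 to 81.8) at 5 or more steps. Those in introns had a median of 1.28, with 22.9% (15.7 to 31.5), and those upstream of the start 1.17, with 16.1% (8.02 to 27.7). The 5'UTR peaks in canonical CDS were thus closer in height to CDS peaks, and those upstream of the canonical start closer to peaks of introns. Those in canonical introns lay between intron peaks (median 1.17, 9.37% at 5 or more steps) and noncoding exon peaks (1.39, 29.1%).

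**Figure D1:**
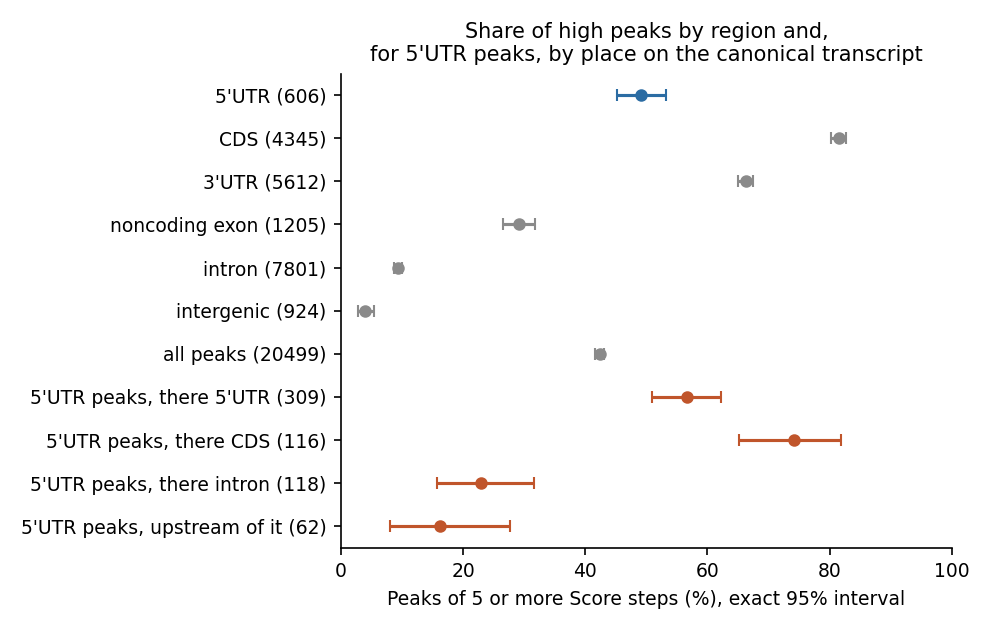
Share of peaks of 5 or more Score steps, in percent, with exact 95% intervals, for all peaks by region (grey, 5'UTR in blue) and for the 5'UTR peaks by their place on the canonical transcript (red). Numbers of peaks are in parentheses; the 5'UTR peaks stood at 49.2%, and their classes ran from 16.1% upstream of the canonical transcript to 74.1% in canonical CDS.

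**Figure D2:**
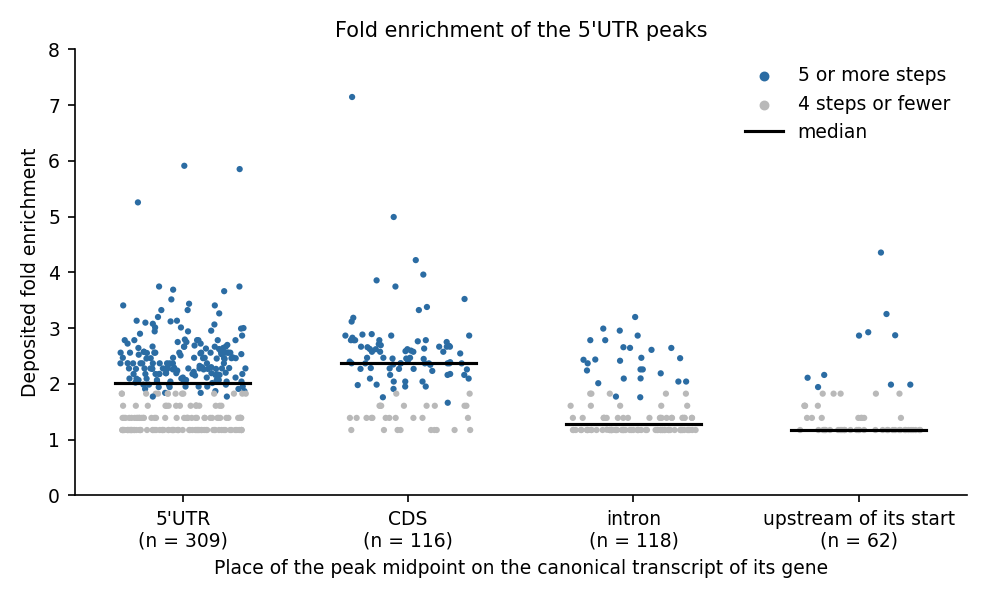
Deposited fold enrichment (vertical axis) of 605 of the 606 5'UTR peaks by place on the canonical transcript, with the 1 peak past its end left out; points are peaks, blue for 5 or more steps and grey for 4 or fewer, and lines are medians. The medians were 2.02, 2.37, 1.28 and 1.17 from left to right, and each class held peaks both above and below a fold enrichment of 2.

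Over all transcripts, 138 of the 606 midpoints (22.8%, 19.5 to 26.3) also lay in CDS, 129 of them in CDS of the same gene and 10 in that of another gene, with 1 in both. Among the 10, the peak given to MFSD11, a membrane protein of the major facilitator family, lay in CDS of SRSF2, an SR splicing factor encoded on the opposite strand. A gene of the opposite strand covered 91 midpoints (15.0%). The 468 midpoints in no CDS had a median fold enrichment of 1.61, with 42.7% at 5 or more steps, and the 138 in CDS had 2.37, with 71.0%. The transcript used for a peak was one subject to nonsense-mediated decay in 15 cases (2.48%), and 1 peak, in RBMS1, overlapped an annotated small RNA gene.

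An FDR under 0.05 was reached in HSP90B1, NAP1L1, TOP1 and RPL22. The highest was in HSP90B1, which encodes the HSP90-family chaperone of the endoplasmic reticulum, at chr12:103931534-103931662, with a fold enrichment of 7.14, 33 steps and an FDR of 0.00170. It lay in exon 2 of a transcript with a 5'UTR of 435 nt and in CDS of the canonical transcript. The peak in NAP1L1, a histone chaperone, at chr12:76084530-76084652, had a fold enrichment of 5.85, 25 steps and an FDR of 0.0296, and lay in exon 1 of the canonical transcript, 45 nt before the start codon. That in TOP1, DNA topoisomerase I, at chr20:41028853-41029136, had 5.25, 22 steps and the same FDR of 0.0296. It was centred 74 nt before the canonical start codon and reached 33 nt into the coding sequence. In RPL22, a protein of the large ribosomal subunit whose gene is recurrently lost in T-ALL, the peak at chr1:6197618-6197743 had 4.99, 19 steps and an FDR of 0.0296, and its midpoint was in CDS of the canonical transcript. Of the 4 genes, NAP1L1 and TOP1 thus had their peak in the canonical 5'UTR.

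The tallest 5'UTR peak by Score was in HMGB1, a chromatin protein that bends DNA. It lay at chr13:30465761-30465903 on exon 1 of the canonical transcript, with 39 steps, a fold enrichment of 5.91 and an FDR of 0.0925. The highest peaks ran past the 3' edge of the exon that held them, by 39 nt in HSP90B1, 35 nt in HMGB1, 37 nt in NAP1L1, 36 nt in TOP1 and 34 nt in RPL22. The next members by fold enrichment lay in MFSD11 (4.35, 34 steps), NONO, a paraspeckle RNA-binding protein (4.22, 16 steps), LUC7L3, a splicing factor of the U1 particle (3.96, 18 steps), and SRRM1, an SR-related splicing coactivator (3.86, 14 steps). Of these 4, NONO, LUC7L3 and SRRM1 were in canonical CDS and MFSD11 upstream of its canonical transcript. Below them came ARPP21, a cAMP-regulated phosphoprotein, and AEBP1, an extracellular matrix protein, each with 3.74 and 16 steps in the canonical 5'UTR. KTN1, the kinesin receptor kinectin, had 3.74 and 13 steps, ANP32B, an acidic histone chaperone, 3.69 and 28 steps, HDAC2, a histone deacetylase, 3.66 and 14 steps, and G3BP2, a stress granule protein, 3.52 and 13 steps. Of these, ANP32B and HDAC2 lay in the canonical 5'UTR and KTN1 and G3BP2 in canonical CDS.

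**Figure D3:**
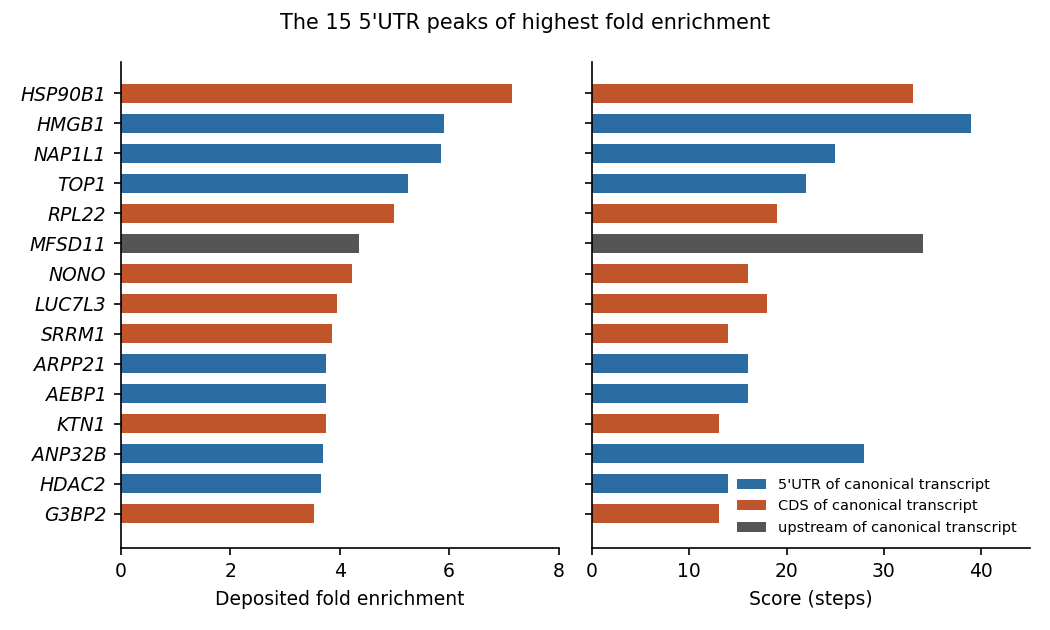
Deposited fold enrichment (left) and Score in steps (right) of the 15 5'UTR peaks of highest fold enrichment, coloured by place on the canonical transcript. Fold enrichment ran from 3.52 in G3BP2 to 7.14 in HSP90B1, and the order by steps differed, with HMGB1 highest at 39.

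Among peaks whose midpoint lay in no CDS of any transcript, the highest 7 by fold enrichment were those in HMGB1, NAP1L1, TOP1, ARPP21, AEBP1, ANP32B and HDAC2. LRIF1, a heterochromatin-associated factor, followed with 3.51 and 14 steps, then DIDO1 with 3.44 and 12 steps, and DCAF16 with 3.41 and 12 steps, level with DDX24, an RNA helicase. The midpoints of all of these lay in the canonical 5'UTR of their gene, and the peaks of TOP1, AEBP1 and LRIF1 also covered 33, 80 and 45 nt of CDS. In DIDO1 and DCAF16 the peak held 1 UGUA each, and in the other 9 it held none on the gene strand.

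Where the peaks lay along the leader was examined next. On the transcript used for each peak, which was the canonical one where its 5'UTR covered the midpoint, 414 of 606 midpoints (68.3%, 64.4 to 72.0) were in exon 1, 133 (21.9%) in exon 2 and 59 (9.74%) in a later exon. Peaks of exon 1 in no CDS had a median fold enrichment of 1.39, with 39.7% at 5 or more steps, and those of later exons in no CDS had 1.94, with 54.7%. In the 309 peaks of canonical 5'UTRs, the median distance was 177 nt from the transcript start (quartiles 99 and 348) and 126 nt to the start codon (46 and 309). Their 5'UTRs had a median length of 361 nt, against 136 nt for the 18976 canonical 5'UTRs of all genes. The former median counts a 5'UTR once per peak, and a longer 5'UTR has more room to hold a midpoint. The comparison is therefore not like for like.

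The peaks near the transcript start were low. Within 25 nt of the start of the canonical transcript, 1 of 17 peaks (5.88%, 0.149 to 28.7) had 5 or more steps, and the median length of these 17 was 240 nt. From 25 to 50 nt it was 4 of 12 (33.3%). The share was 51.0% of 51 peaks from 50 to 100 nt, 65.9% of 91 (55.3 to 75.5) from 100 to 200 nt, 64.4% of 73 from 200 to 400 nt and 56.9% of 65 beyond. By distance to the start codon the share in these canonical 5'UTRs ran from 60% of 45 peaks within 25 nt (44.3 to 74.3) to 50% of 50 peaks beyond 400 nt (35.5 to 64.5). Over all 606 peaks, each on the transcript used for it, the share was 65.7% of 70 within 25 nt (53.4 to 76.7), 33.3% of 141 from 200 to 400 nt (25.6 to 41.8) and 47.2% of 123 beyond (38.1 to 56.4). In canonical 5'UTRs, median relative position, with 0 at the transcript start and 1 at the start codon, was 0.637 for the 175 peaks of 5 or more steps. It was 0.519 for the other 134. The 5' edge of a transcript was crossed by 99 peaks of all 606 (16.3%), which reached into sequence before the start of the transcript used. This held for 8 of 298 peaks of 5 or more steps (2.68%, 1.17 to 5.22) and for 91 of 308 of 4 steps or fewer (29.5%, 24.5 to 35.0). Most of the lower peaks were also longer, as given above, and the part of length in this difference was not tested.

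**Figure D4:**
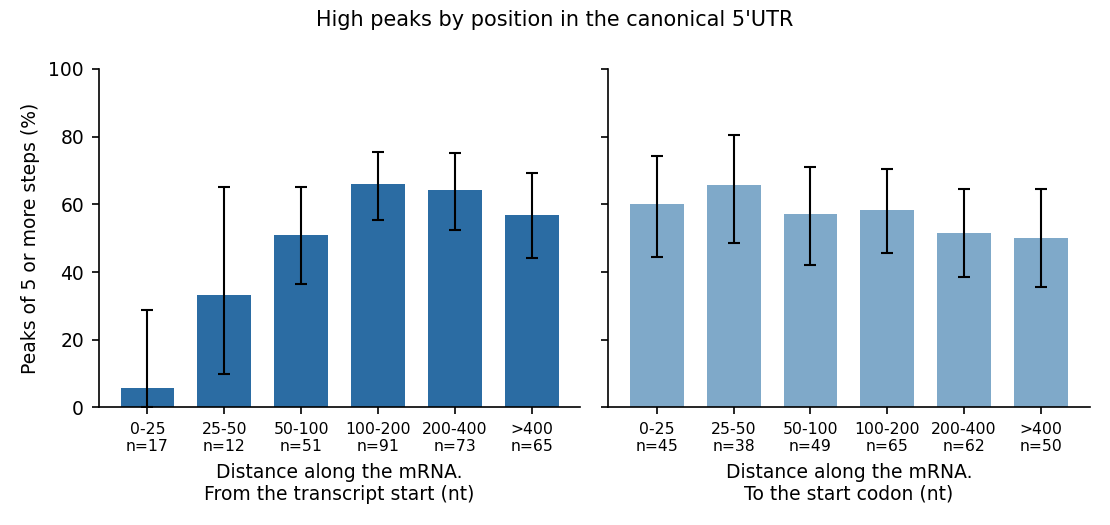
Share of the 309 canonical 5'UTR peaks with 5 or more steps, in percent with exact 95% intervals, by distance in nt along the mRNA from the transcript start (left) and to the start codon (right), with the number of peaks under each bar. The share was 5.88% within 25 nt of the transcript start and 65.9% from 100 to 200 nt, while it lay between 50% and 65.8% in each class of distance to the start codon.

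At the other edges, 174 peaks (28.7%, 25.1 to 32.5) reached past the 3' edge of their exon into the intron after it. The share was 27.5% (22.5 to 33.0) for peaks of 5 or more steps and 29.9% (24.8 to 35.3) for the others, intervals that overlap. The coding sequence of the same transcript was reached by 106 peaks (17.5%, 14.5 to 20.8), and CDS of any transcript of the gene by 222 (36.6%). Peaks within a single exon numbered 343 (56.6%).

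The 5'UTR peaks were rich in G and C, with a median content of 61.5%, against 49.6% in CDS peaks, 43.4% in 3'UTR peaks and 44.9% over the list. In canonical 5'UTRs it was 67.7% for the 233 peaks of exon 1 and 48.4% for the 76 of later exons. To set peaks beside their own surroundings, the bases of peaks within 5'UTRs were compared with the parts of the same 5'UTRs outside every peak, for the 602 peaks whose 5'UTRs lay on 1 strand. G and C made up 60.9% of bases in peaks and 56.0% outside. Beside the peak the contents were closer. Peaks of 5 or more steps had 57.99%, against 58.62% in the 5'UTR within 100 nt of them. Peaks of 4 steps or fewer had 62.22%, against 61.58% within 100 nt. In peaks of 5 or more steps C was more common than G, with 31.3% C and 26.7% G, a ratio of 1.17, against 0.963 outside peaks and 1.05 in the 5'UTR within 100 nt of them. With CDS left out as well, the ratio was 1.29 in peaks of 5 or more steps, against 0.984 outside and 1.07 within 100 nt. In peaks of 4 steps or fewer it was 0.943, against 0.939 outside.

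Tetramers were then ranked by density. Over all 602 peaks, the density relative to the rest of the same 5'UTRs was highest for the 5 shown in capitals above, led by CCGC at 1.54 (counting interval 1.43 to 1.66). It was lowest for AUAU (0.372), UAUA (0.436), UUUU (0.507), UUUA (0.527) and UAUU (0.529). In peaks of 5 or more steps, 189 tetramers had at least 50 counts in and outside peaks and were ranked. The highest of these were ACCG (2.05, 1.64 to 2.54), CACC (1.84), CGUC (1.69), CCGC (1.63) and CCGU (1.61), and the lowest UUUU (0.356), AUUU (0.452), UGUU (0.509), UUUG (0.528) and GGCG (0.549). Sparse tetramers were not ranked, among them UUAG (0.508), UGUA (0.511) and UAGU (0.548), which were lower than GGCG. CCGC and its reverse complement GCGG stood at 1.63 and 0.752 in these peaks, whereas in peaks of 4 steps or fewer they stood at 1.55 and 1.54. In the higher peaks the C-rich form was thus the frequent one on the gene strand, and in the lower peaks both forms were. Peaks that share a gene share sequence, and tetramers overlap, so that these values are not independent of each other.

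UGUA was less dense in the 5'UTR peaks than beside them. It occurred 101 times in 72.8 kb of peak sequence, 1.39 per kb, and 1233 times in 510 kb outside, 2.42 per kb, a ratio of 0.575 (0.464 to 0.704). On the opposite strand the ratio was 0.707. The 11 other orders of the same 4 bases had ratios of 0.591 to 0.826 on the gene strand, so that UGUA stood below each of them, and 4 of the 11 were below it on the opposite strand. For the higher peaks, of 5 or more steps, UGUA stood at 0.511 (0.342 to 0.737), and 1 other order, UUAG, was lower at 0.508. With peaks in CDS left out it was 0.567, with 4 other orders lower, down to 0.493. The ratio against 5'UTR sequence within 100 nt of the peak was 0.740 (0.561 to 0.974), closer to 1. The G and C content of all these peaks was 60.9%, against 56.0% outside. Peaks of 5 or more steps, with the UGUA ratio of 0.511, had 57.99%, against 54.89% outside. Peaks of 4 steps or fewer had a higher ratio, 0.630, and a wider gap in content, with 62.22% against 56.97% outside. Within 100 nt of the peak, where the ratio was 0.740, the contents were closer, as given above. The part of G and C content in the ratio was not tested.

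At least 1 UGUA on the gene strand was present in 114 of 602 5'UTR peaks (18.9%, 15.9 to 22.3), and 121 (20.1%, 17.0 to 23.5) held it on the opposite strand. The share depended on length, so peaks of like length were set side by side. Among peaks of 48 to 75 nt, 11.4% of 193 5'UTR peaks (7.28 to 16.7) held UGUA, beside 12.6% of 1869 CDS peaks and 21.2% of 1983 3'UTR peaks. From 76 to 150 nt the shares were 17.4%, 20.7% and 36.2%, and from 151 to 500 nt 26.4% (20.8 to 32.6), 38.6% and 67.6%. CCGC was taken up because it was the densest tetramer in these 5'UTR peaks, so its shares are a description. It was present in 26.9%, 50.6% and 66.7% of 5'UTR peaks in the same 3 classes of length, in 11.9%, 19.3% and 38.9% of CDS peaks and in 6.86%, 12.6% and 21.2% of 3'UTR peaks. From 151 to 500 nt the median G and C content was 62.7% in 5'UTR, 51.0% in CDS and 41.1% in 3'UTR peaks. The part of this content in the shares of UGUA and CCGC was not tested. Within canonical 5'UTRs, 9.44% of the peaks of exon 1 and 30.3% of those of later exons held UGUA, and these 2 classes also differed in G and C content, as given above.

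Of the 15 peaks of highest fold enrichment, 4 held UGUA on the gene strand (26.7%, 7.79 to 55.1), an interval that held the 18.9% of all. They were those of RPL22 and G3BP2, with 2 copies each, and of MFSD11 and NONO, with 1 each, and the midpoints of all 4 lay in CDS of some transcript. Of the 114 peaks with UGUA, 35.1% (26.4 to 44.6) had 5 or more steps, with a median length of 184 nt, and of the 488 without it 52.5% (47.9 to 57.0), with a median of 103.5 nt. The part of length in this difference was not tested. Of the peaks with UGUA whose midpoint lay in no CDS, the highest 10 were those of DIDO1 (fold enrichment 3.44), DCAF16 (3.41), PHF7 (3.08, 11 steps), DKC1, a pseudouridine synthase (2.95, 13 steps), MKI67 (2.94, 11 steps), NFE2L1 with 2 peaks (2.72, 11 steps, and 2.67, 9 steps), NUCB2 (2.69, 31 steps), FAM111A, a protease (2.66, 8 steps), and SH3YL1, a protein with an SH3 domain (2.64, 8 steps). NUCB2, at chr11:17282822-17283028, was the tallest of them by Score, and its peak was centred 19 nt before the canonical start codon. The peaks of DKC1, FAM111A and SH3YL1 lay in introns of the canonical transcript. The peak of PHF7, a histone ubiquitin ligase, was centred 2 nt before the start codon and covered 41 nt of coding sequence, and its UGUA lay in that part and in no 5'UTR of the gene. The UGUA of DKC1 lay both in a 5'UTR and in CDS of another transcript.

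In all, 539 genes had a 5'UTR peak, 2.84% of the 18991 genes with an annotated 5'UTR and 13.0% of the 4133 genes with a peak in a 5'UTR, CDS or 3'UTR. Most, 486 genes (90.2%), had 1 such peak, 40 had 2, 7 had 3, 4 had 4 and 2 had 5. NAP1L1 had 5, with fold enrichments of 5.85, 3.38, 2.89, 2.76 and 2.23 and 25, 14, 21, 32 and 25 steps. The one of 5.85 lay in the canonical 5'UTR and the other 4 in canonical CDS. HIVEP1, a zinc finger transcription factor, also had 5, all in canonical CDS and all low, at 1 to 3 steps and a fold enrichment of at most 1.61. There were 4 peaks each in ANKHD1, an ankyrin repeat protein, at 5 to 8 steps and in canonical CDS, and in TUT7, a uridylyltransferase, at 1 to 8 steps, 3 of them in canonical CDS. SMC4, a condensin subunit, had 4 at 6 to 11 steps, and SH3YL1 4 at 7 to 11 steps, all 4 in introns of the canonical transcript. Of the 5'UTR peaks of these 6 genes, that of NAP1L1 at 5.85 was the only one in a canonical 5'UTR.

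The genes were then examined for other exonic peaks. A 5'UTR peak was not counted as a CDS peak, even where its midpoint also lay in CDS, as 138 of the 606 did. HIVEP1 and TUT7, with 5'UTR peaks in canonical CDS, thus counted as having neither a CDS nor a 3'UTR peak. Of the 539, 215 (39.9%, 35.7 to 44.2) had a 3'UTR peak, 181 (33.6%) a CDS peak and 255 (47.3%, 43.0 to 51.6) neither, and 155 (28.8%) had no intron peak either. For comparison, 841 of 1987 genes with a CDS peak (42.3%) had a 3'UTR peak. Genes were divided by the height of the 5'UTR peak, each peak being given to 1 gene. Of 253 genes with a 5'UTR peak of 5 or more steps, 143 (56.5%, 50.2 to 62.7) had a 3'UTR peak, 129 (51.0%) a CDS peak and 69 (27.3%) neither. Of 280 genes whose 5'UTR peaks had 4 steps or fewer, 68 (24.3%, 19.4 to 29.7) had a 3'UTR peak, 52 (18.6%) a CDS peak and 184 (65.7%) neither. No measure of RNA level was used here, so these shares are not adjusted for it.

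**Figure D5:**
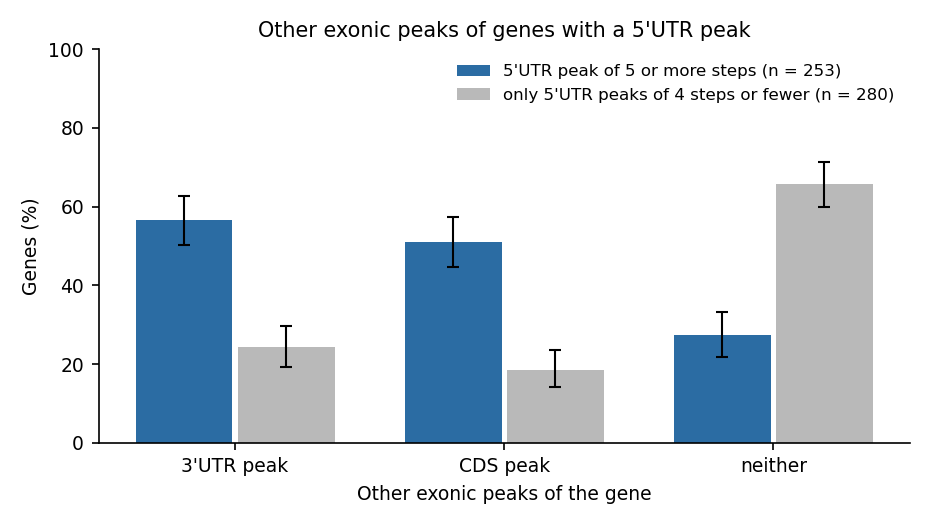
Share of genes, in percent with exact 95% intervals, that also had a 3'UTR peak, a CDS peak or neither, for 253 genes with a 5'UTR peak of 5 or more steps (blue) and 280 genes with lower 5'UTR peaks only (grey). The 3'UTR share was 56.5% in the former and 24.3% in the latter, and the share with neither 27.3% and 65.7%. A 5'UTR peak whose midpoint also lay in CDS was not counted as a CDS peak.

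Gene lists of known function were set beside the 13.0% of genes with any exonic peak that had a 5'UTR peak. Acidic histone chaperones and nucleolar proteins had such a peak in 4 of the 19 genes with an exonic peak (21.1%, 6.05 to 45.6): NAP1L1, ANP32B, DKC1, and PTMA, or prothymosin alpha (2.31, 26 steps). Those of ANP32B and PTMA lay in exon 1 of the canonical transcript, as did the NAP1L1 peak of highest fold enrichment. The other 5'UTR peaks of NAP1L1 lay in canonical CDS. Among ubiquitin-conjugating enzymes, UBE2V2 had a 5'UTR peak with a fold enrichment of 2.67 and 9 steps, in canonical CDS, and UBE2D3 is described below. Among translation factors it was 3 of 21 (14.3%): PABPC1, the cytoplasmic poly(A)-binding protein (2.37, 20 steps), EIF1, which guards start codon choice (2.20, 15 steps), and EIF4G1, the scaffold of the cap-binding complex (1.76, 6 steps). PABPC1 and EIF1 had theirs in the canonical 5'UTR and EIF4G1 in canonical CDS.

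SR proteins and SR-related splicing factors had 3 of 27 (11.1%): LUC7L3, SRRM1 and SRRM2 (2.28, 9 steps), of which SRRM2 lay in the canonical 5'UTR. Lists with 1 gene each were the cytosolic ribosomal proteins (RPL22, 1 of 9), hnRNP proteins (HNRNPC, 1 of 20, 2.24 and 7 steps), chaperones (HSP90B1, 1 of 19), cleavage and polyadenylation factors (RBBP6, 1 of 14, 2.53 and 11 steps) and genes known for upstream open reading frames (EIF1, 1 of 8). The interval of each list given here with a count, that of the T-cell leukemia genes included, held 13.0%.

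Of the T-cell leukemia genes, 5 of 31 (16.1%, 5.45 to 33.7) had a 5'UTR peak. They were RPL22; GATA3, a T-cell transcription factor (2.30, 7 steps, exon 2 of the canonical transcript); PIK3R1, a regulatory subunit of phosphoinositide kinase (2.26, 6 steps, canonical 5'UTR); RUNX1, a hematopoietic transcription factor (2.01, 18 steps); and STAT5B. The peak of RUNX1 at chr21:34887992-34888061 lay in an intron of its canonical transcript, and that of STAT5B, with 1.17 and 1 step, lay in 5'UTRs of both STAT5A and STAT5B, which lie on opposite strands there. No 5'UTR peak was assigned to MYC, MYB or ETV6.

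Among genes the study turned to, UBE2D3 had 2 5'UTR peaks. One, at chr4:102826509-102826596, had a fold enrichment of 1.91 and 6 steps and lay in exon 2 of the canonical transcript, 44 nt before the start codon. The other, at chr4:102827009-102827056, had 2.37 and 9 steps and lay in an intron of the canonical transcript. Neither held UGUA on the gene strand, and both had an FDR of 1. HMGB2, a paralog of HMGB1, had 1 peak at chr4:173334230-173334282, with 38 steps and a fold enrichment of 2.41, in an intron of the canonical transcript and 31 nt before the start codon of another. The peaks of HMGB1 and HMGB2 were thus alike in Score, 39 and 38 steps, and differed in fold enrichment, 5.91 and 2.41. No 5'UTR peak was assigned to NUDT21, to its partners CPSF6 and CPSF7, or to UBE2N, UBE2J1, HMGA1, CDK1 or PCNA.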

How the data were processed

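J-Gamma1 cells gave 1 library with a NUDT21 antibody and 1 input library, and the peak list of the former was used. The authors processed raw reads with fastp, collapsed duplicates through their molecular identifiers, discarded ribosomal RNA, aligned to hg38 and called peaks with MACS2. Neither the aligner nor the use of the input as control was given in the sources used here. The deposited fold enrichment sets a peak's pileup against its local background. Its formula was not stated in the sources used here, and it was not proportional to the Score. The deposited p-value and FDR are those of MACS2, and the unit of the deposited Score was not stated. All Score values were whole multiples of 0.228 within 0.00497.

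Coordinates were counted from 1, and each of the 20499 lengths equalled end minus start plus 1. Midpoints were assigned with GENCODE 44 with 3'UTR taking precedence over 5'UTR, then CDS, then noncoding exon and intron; the stop codon counted as 3'UTR, as in that annotation. The transcript used for a peak was the canonical one where its 5'UTR covered the midpoint, otherwise a protein-coding one of a named gene. Shares have Clopper-Pearson 95% intervals, and density ratios exact conditional binomial intervals. The 4 peaks in 5'UTRs of both strands were left out of counts by strand. Genes were named by rule: the 15 5'UTR peaks of highest fold enrichment, the 10 highest with the midpoint in no CDS, the 10 highest of these with UGUA, those with FDR under 0.05, the 6 genes with most peaks, members of 10 gene lists, and genes of interest to the study. The count of the ubiquitin-conjugating enzyme list is not reported here. Tetramers with at least 50 counts in and outside peaks were ranked. The members and lists were chosen with earlier results of these data known. Alternatives were stricter limits on peaks, any overlap, CDS in precedence, 1 transcript per gene, omission of nonsense-mediated decay transcripts and other sequence outside peaks. The scripts, tested on simulated data, ran in Python 3.11.15 (pysam 0.24.0, scipy 1.17.1, numpy 2.4.6, pandas 2.3.3; figures with matplotlib 3.10.9).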

Additional observations from a re-analysis of the deposited data

How the results depend on the processing

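The share of peaks in 5'UTRs was 2.96%, and it was 3.43% both with a fold enrichment of at least 2 and with 5 or more steps, 5.05% with any overlap, 2.28% with CDS in precedence and 1.51% with 1 transcript per gene. The number of genes, 539, became 233, 258, 892 and 287 with a fold of at least 2, 5 or more steps, any overlap and 1 transcript per gene. The share also in CDS, 22.8%, became 33.7%, 32.9%, 47.1% and 1.29% under these 4 settings in the same order, and 27.2% without nonsense-mediated decay transcripts. The share of 5 or more steps, 49.2%, was 100% by construction with a fold of at least 2, 40.9% with any overlap, 42.7% with CDS in precedence and 56.8% with 1 transcript per gene. The median fold enrichment, 1.82, was 2.47 with a fold of at least 2, 2.45 with 5 or more steps and 2.03 with 1 transcript per gene. The exon 1 share, 68.3%, was 59.2% with a fold of at least 2, 58.7% with 5 or more steps, 63.5% with any overlap, 79.7% with CDS in precedence, 75.2% with 1 transcript per gene and 64.4% without nonsense-mediated decay transcripts. With 5 or more steps and CDS in precedence together, a pair chosen after the data had been seen, it was 74%. The share reaching into CDS, 17.5%, was 31.0% with any overlap and 23.9% with 1 transcript per gene. The UGUA ratio of 0.575 was below 1 under each setting tried, and moved most, to 0.740, with the sequence outside restricted to 100 nt from the peak, also chosen after the data had been seen. The share of genes with a 3'UTR peak, 39.9%, was 53.2% with a fold of at least 2, 53.9% with 5 or more steps, 30.5% with CDS in precedence, 32.8% with 1 transcript per gene and 33.4% without nonsense-mediated decay transcripts. Several of these shifts follow from the setting itself, among them the 100% and the median above 2 with a fold of at least 2. The low share in CDS with 1 transcript per gene is another, because a 5'UTR and CDS of the same transcript do not overlap. The causes of the other shifts were not tested. No paired analysis was possible because each group had 1 library and the input library had no peak list here. Without read totals and with 1 replicate, neither depth nor reproducibility of a single peak could be given.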
